A study of Sus scrofa with 9 samples.

Results

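Glycerophospholipid and sphingolipid metabolism was followed in pig blastocysts through 87 gene loci. They are the loci of the deposited gene table whose pathway annotation holds the KEGG (Kyoto Encyclopedia of Genes and Genomes) term for glycerophospholipid metabolism or for sphingolipid metabolism, that do not carry the term for the lysosome, and that hold a transcript matching or sharing splice junctions with a known transcript. The table holds 88800 assembled loci, of which 17065 are annotated in that sense. The glycerophospholipid term is carried by 61 of the 87 members and the sphingolipid term by 29, with 3 members, the phospholipid phosphatases PLPP1, PLPP2 and PLPP3, carrying both. The lysosome term left out 5 further loci, among them ASAH1, GALC and SMPD1, so lysosomal breakdown of sphingolipids is not represented.

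Glycerophospholipids are the main building blocks of cell membranes. They are made by acylating glycerol-3-phosphate to phosphatidic acid, from which diacylglycerol leads to phosphatidylcholine and phosphatidylethanolamine (the Kennedy pathway) and CDP-diacylglycerol leads to phosphatidylinositol and cardiolipin. Lysophospholipid acyltransferases and phospholipases then exchange the fatty acids of the finished lipids, a cycle known as remodelling. Sphingolipids start from serine and palmitoyl-CoA, pass through ceramide, and end as sphingomyelin, glycosphingolipids or sphingosine 1-phosphate, a signalling lipid. In blastocysts, membrane lipids are needed by the trophectoderm, the polarised outer epithelium that encloses the fluid-filled cavity.

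RNA of porcine blastocysts was sequenced to ask what the chromatin remodelling ATPase INO80 does at this stage. The labels list 9 samples: 3 that were not injected, 3 with a control siRNA and 3 with an siRNA against INO80. The tables name their columns as uninjected, sham water and INO80 siRNA, 3 columns each, and these names are used here. The names and labels disagree. The 3 samples titled as water shams carry INO80 siRNA as their siRNA characteristic, no column is named for a control siRNA, and no sample is titled as the INO80 siRNA columns are, so what the sham water and INO80 siRNA columns were injected with cannot be told apart from the labels alone. Strain is given only as porcine, and neither siRNA dose, age in days, nor the number of embryos behind a library is stated. Whether the columns of a set stem from different pools of embryos is not stated, and p-values therefore reflect only how these columns vary, which may be technical.

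INO80 itself was examined first, as a check of the names. INO80 (locus MSTRG.4659) stood at 0.737, 1.09 and 1.92 FPKM (fragments per kilobase of transcript, scaled to the mapped fragments of the library) in the uninjected columns, at 1.72, 0.716 and 1.90 FPKM in the sham water columns and at 0.331, 1.37 and 2.18 FPKM in the INO80 siRNA columns. The 3 sets overlapped: the INO80 siRNA columns held both the lowest and the highest value. INO80 siRNA minus sham water was -0.14 on the log2(FPKM + 1) scale (exact permutation test, two-sided, p = 0.80, n = 3 columns a set; the smallest p this design allows is 0.10). No lower level of the targeted transcript was thus detectable in the columns named for its siRNA, and directions below are those of the column names.

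Depth is unknown, since the tables used hold FPKM and no counts, so no counting interval can be given. Annotated loci took 50.3% to 71.6% of the signal in the INO80 siRNA columns, 61.0% to 74.6% in the uninjected columns and 65.6% to 86.1% in the sham water columns. Transcripts outside genes took 15.7% to 28.1%, 13.7% to 21.6% and 7.84% to 18.5%, respectively. Because FPKM divides by the whole library, these shares move with the level of every annotated gene, and their part in the differences below was not tested. Trophectoderm markers (11 of 11 matched) summed to 3100 to 8874 FPKM in the uninjected columns, 3336 to 8683 FPKM in the sham water columns and 1397 to 5431 FPKM in the INO80 siRNA columns, nearly all of it KRT8, KRT18 and DAB2, which stood at 81.0 FPKM or more in every column. The trophectoderm factors GATA2, GATA3 and TEAD4 were above 3 FPKM in every column, whereas CDX2 lay between 0.0391 and 3.14 FPKM and HAND1 was listed at 0 in 1 sham water column and 2 INO80 siRNA columns. Epiblast markers (7 of 8 matched) summed to 93.0 to 143, 115 to 174 and 43.6 to 108 FPKM, and primitive endoderm markers (8 of 8) to 21.8 to 29.3, 17.3 to 39.1 and 12.9 to 17.9 FPKM. Maternal oocyte markers (11 of 12) summed to 4.0 to 37.5, 21.2 to 54.5 and 10.8 to 213 FPKM, cumulus and granulosa markers (5 of 8) to 18.9 to 95, 26.2 to 127 and 23.2 to 26.6 FPKM, and blood and immune markers (5 of 7) to 51.5 to 65.3, 58.9 to 68.4 and 86.2 to 147 FPKM. The last sums rest mainly on AIF1 (78.3 to 140 FPKM in the INO80 siRNA columns and 43.7 to 62.0 FPKM in the others), while PTPRC and ALAS2 were below 0.1 FPKM in all 9 columns. HBB stood at 23.6 FPKM in the second INO80 siRNA column, 6.73 FPKM in the first sham water column and at most 1.28 FPKM elsewhere. LYZ lay between 0.347 and 7.97 FPKM. No matched marker was at 0 in all 9 columns. In bulk samples, fewer cells of a type and less RNA per cell cannot be told apart.

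Most of the pathway was measurable. Of the 87 members, 67 were above 0 in all 9 columns. The mean over the columns was at least 1 FPKM in 51, at least 10 FPKM in 17 and at least 100 FPKM in 1. That mean was below 0.1 FPKM in 9. The median member had a mean of 2.29 FPKM, against 0.969 FPKM for the median annotated locus. The tests kept loci whose mean reached 1 FPKM in 1 set or more, and 55 members did so (63.2%, against 54.6% of annotated loci), and 32 stayed below it. Columns of a set varied widely: the coefficient of variation within sets had a median of 54.3% over the members that passed (range 25% to 110%), against 48.6% over the annotated loci that passed.

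**Figure D1:**
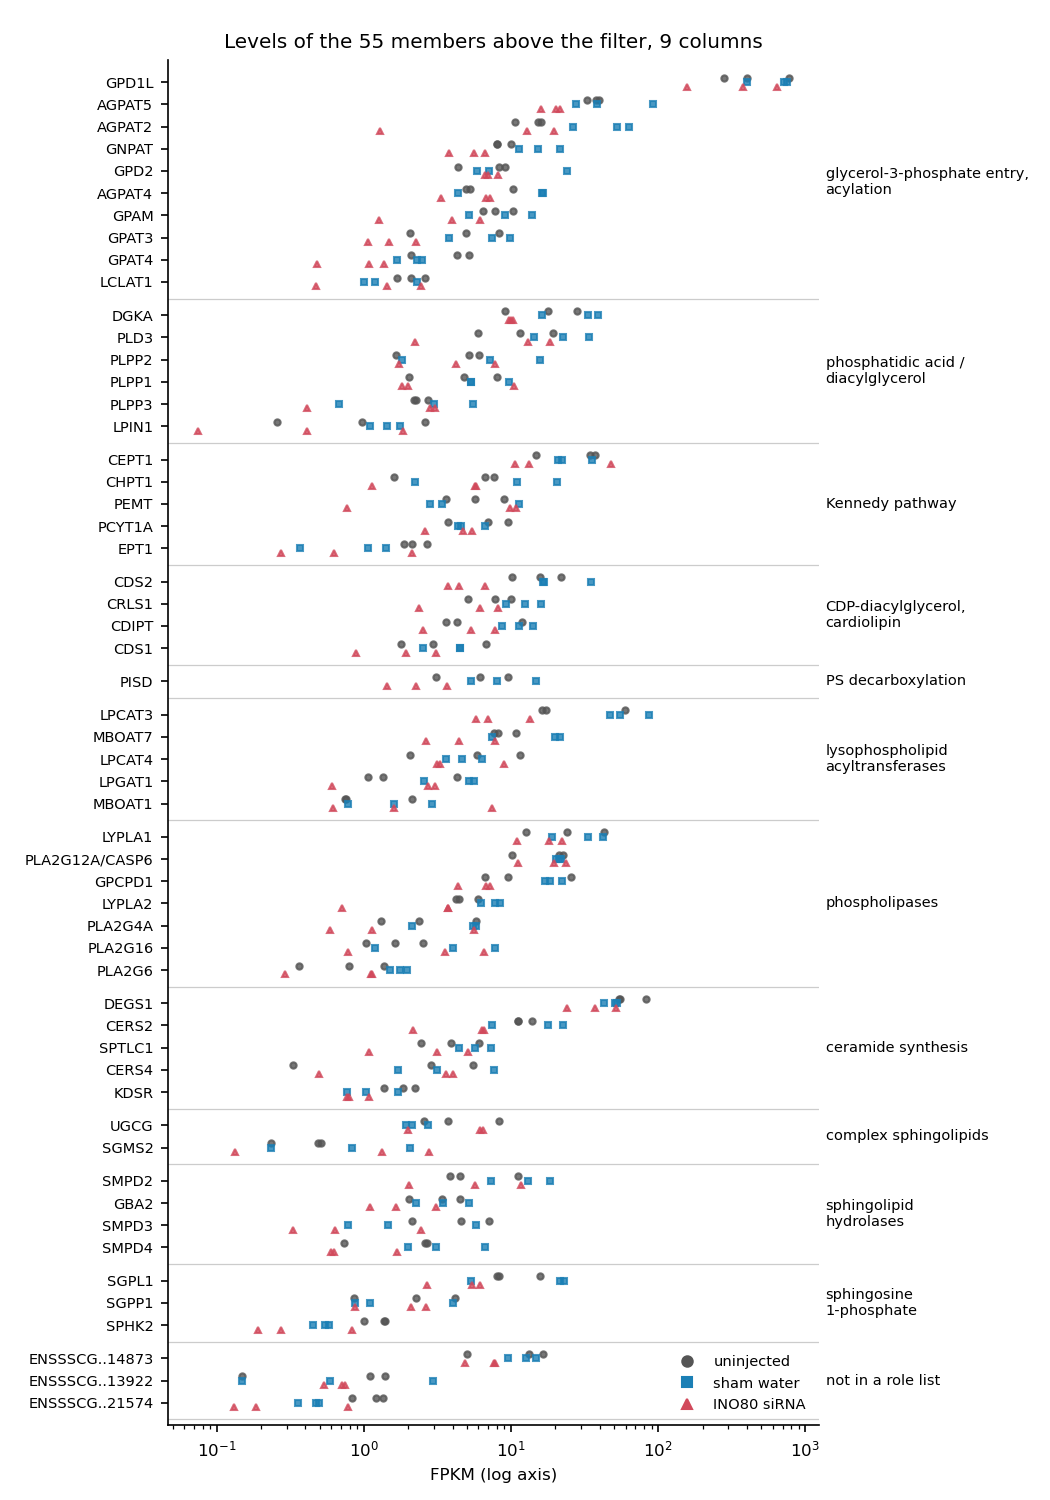
FPKM (log axis) of the 55 members that passed the filter, by role; circles are uninjected columns, squares sham water columns and triangles INO80 siRNA columns, 3 of each. GPD1L stands alone above 100 FPKM, and the 3 sets overlap for most members.

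Entry into the pathway was dominated by a single enzyme. GPD1L, a cytosolic glycerol-3-phosphate dehydrogenase that makes the glycerol backbone, stood at 779, 401 and 278 FPKM in the uninjected columns, 711, 398 and 755 FPKM in the sham water columns and 644, 374 and 156 FPKM in the INO80 siRNA columns. It was the highest member in every column, took 30.9% to 69.6% of the summed FPKM of all 87 members, and its sets overlapped. Within the step it held 95.5% to 99.2% of the FPKM in each column, over the mitochondrial enzyme GPD2 (4.33 to 23.9 FPKM) and GPD1 (0.0246 to 0.454 FPKM).

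The first acylation was shared by 3 enzymes. GPAM, the mitochondrial glycerol-3-phosphate acyltransferase, held 31.2% to 71.4% of the step's FPKM, GPAT3 held 13.7% to 46.1%, GPAT4 held 8.63% to 34.4% and GPAT2 at most 5.43%. For GPAM the highest transcript is one that overlaps the known gene without matching its splice pattern, so its level is less certain, and the same holds for SPTLC1 below. The second acylation, by lysophosphatidic acid acyltransferases, was held mainly by AGPAT5 (35.2% to 73.7%) and AGPAT2 (4.69% to 48.5%), with AGPAT4 at 7.31% to 17.1% and AGPAT1 at no more than 1.09%. GNPAT, which starts the peroxisomal synthesis of ether lipids, had a mean of 10 FPKM over the 9 columns.

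Of the enzymes that turn phosphatidic acid and diacylglycerol into each other, DGKA, a diacylglycerol kinase, held 84.9% to 98.7% of the FPKM of the 6 diacylglycerol kinases among the members. DGKZ, a diacylglycerol kinase that is no member, shares its locus with MDK. That locus had means of 13.5, 8.34 and 16.3 FPKM in the uninjected, sham water and INO80 siRNA columns, which cannot be given to either gene. DGKA had means of 18.3, 29.5 and 9.995 FPKM in the same order, so its share may not cover the whole step. PLD3, classed with the phospholipases D, had a mean of 15.6 FPKM, whereas the phosphatidylcholine-hydrolysing PLD1 and PLD2 had means of 0.0816 and 0.509 FPKM. The 3 phospholipid phosphatases had means between 2.52 FPKM (PLPP3) and 5.69 FPKM (PLPP2).

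In the Kennedy pathway, CEPT1, which joins either choline or ethanolamine to diacylglycerol, had a mean of 26.3 FPKM and held 49.1% to 96.5% of the FPKM of the terminal transferases, over CHPT1 (2.28% to 48.4%) and EPT1 (0.791% to 10.1%). The rate-limiting enzyme, which activates phosphocholine, was almost wholly PCYT1A (82.1% to 98.7%) and not PCYT1B. Choline kinase CHKA, at a mean of 0.274 FPKM, and ethanolamine kinase ETNK2, at 0.313 FPKM, were below the filter. CHKB, ETNK1 and PCYT2, also listed for this pathway, matched no annotated locus, so these steps are covered only in part. On the other branch, CDS2, a CDP-diacylglycerol synthase, held 60.3% to 89.7% of the FPKM it shares with CDS1. TAMM41, a CDP-diacylglycerol synthase that is no member, had means of 28.6, 38.7 and 15.7 FPKM in the uninjected, sham water and INO80 siRNA columns. CDS2 had means of 15.9, 22.8 and 4.96 FPKM in the same order, so its share does not cover the whole step. CRLS1 (cardiolipin synthase) and CDIPT (phosphatidylinositol synthase) had means of 8.57 and 7.71 FPKM over the 9 columns.

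Remodelling was led by LPCAT3, the acyltransferase that places polyunsaturated fatty acids into phosphatidylcholine (mean 34.2 FPKM), followed by MBOAT7, which prefers lysophosphatidylinositol and arachidonoyl-CoA (mean 10 FPKM), while LPCAT1 and LPCAT2 had means of 0.441 and 0.122 FPKM. Among the hydrolases, the acyl-protein thioesterase and lysophospholipase LYPLA1 (mean 25 FPKM) and GPCPD1, which cleaves glycerophosphocholine (13.1 FPKM), stood high, and of the intracellular phospholipases A2 listed, PLA2G4A, PLA2G16 and PLA2G6 passed the filter. The locus that holds PLA2G12A also holds CASP6, so its mean of 19.0 FPKM cannot be given to either gene. PLA2G2D and PLA2G2F, secreted phospholipases, were above 0 in 1 column each.

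On the sphingolipid side, DEGS1, the desaturase that completes ceramide, was the highest member after GPD1L, with a mean of 50.1 FPKM. CERS2, the synthase of very-long-chain ceramides, held 61.5% to 97.7% of the FPKM of the 2 ceramide synthases among the members, over CERS4. CERS5, a ceramide synthase that is no member, had means of 9.50, 16.1 and 8.35 FPKM in the uninjected, sham water and INO80 siRNA columns. CERS2 had means of 12.1, 15.9 and 5.03 FPKM in the same order, so its share does not cover the whole step. SPTLC1, a subunit of serine palmitoyltransferase, had a mean of 4.35 FPKM and SPTLC3, an alternative catalytic subunit, 0.0176 FPKM. SPTLC2, the catalytic subunit to which SPTLC3 is the alternative, is no member. It had means of 5.83, 7.30 and 3.82 FPKM in the uninjected, sham water and INO80 siRNA columns. Among the hydrolases of this side, the neutral sphingomyelinase SMPD2 and the non-lysosomal glucosylceramidase GBA2 had means of 8.61 and 2.96 FPKM. Of the enzymes that use ceramide, UGCG, which makes glucosylceramide, had a mean of 3.99 FPKM and the sphingomyelin synthase SGMS2 0.955 FPKM. The lyase SGPL1, which ends sphingosine 1-phosphate, had a mean of 10.7 FPKM, whereas the kinases that make it stood at 0.736 FPKM (SPHK2) and 0.214 FPKM (SPHK1). SPHK2 and the locus of ENSSSCG00000021574, which has no symbol in the tables used, lie 76830 bases apart on chromosome 6 with similar ranges over the columns (0.191 to 1.39 FPKM and 0.132 to 1.34 FPKM), so reads may be split between near-identical copies and both levels are uncertain.

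The comparison of the INO80 siRNA columns with the sham water columns asked which members differed with the named siRNA against an injected control. No member passed: with limma (a linear model with moderated variances) on log2(FPKM + 1) and Benjamini-Hochberg adjustment over all 67107 loci tested, 0 of 55 members were called, with the lowest adjusted p at 0.46, and 0.00149% of all loci (1 locus) were. At an unadjusted p below 0.05, 0 members were higher and 11 (20.0%) were lower; of annotated loci 0.516% were higher and 6.79% lower, and of all loci 9.31% were higher and 1.3% lower. Without a filter, 13 of all 87 members (14.9%) were lower and 0 higher, against 4.69% of annotated loci lower. Annotated loci as a whole lay lower in this comparison, with a median log2 fold change of -0.34 against 0.57 over all loci, and the members that passed had a median of -0.75. Over all 87 members without a filter the median was -0.34, against -0.08 over annotated loci.

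The 11 members lie at several steps: GPAT3, AGPAT2 and GNPAT in acylation, CDS2 and PISD in phospholipid synthesis, LPCAT3 and MBOAT7 in remodelling, GPCPD1 and LYPLA2 among the hydrolases, and CERS2 and SMPD4 in sphingolipid metabolism. The count rests in part on single columns: it was 2 without the first INO80 siRNA column, 3 without the third sham water column and 5 without the third INO80 siRNA column. The share of annotated loci without these columns was not taken, so these counts cannot be set against a background. When each column was scaled by the upper quartile of its annotated loci, 3 of the 58 members that then passed the filter were below that p (LPCAT3, CDS2 and AGPAT2), against 2.35% of annotated loci lower and 2.24% higher; the median over annotated loci was 0.05 and that over the members -0.34.

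LPCAT3 had the smallest p of the members. LPCAT3 (MSTRG.62657, chr5:66143873-66184169, plus strand; positions are those of the deposited transcript table, whose pig assembly is not given) stood at 17.2, 16.1 and 59.5 FPKM in the uninjected columns, at 55.2, 46.7 and 86.7 FPKM in the sham water columns and at 5.81, 13.5 and 6.92 FPKM in the INO80 siRNA columns. The INO80 siRNA columns lay below all 6 others, and among the uninjected columns the third was as high as a sham water column. INO80 siRNA minus sham water was -2.74 (SE 0.677, unadjusted p = 0.00168, adjusted p = 0.46, limma), and under the 18 alternatives tried it ranged from -3.27 to -2.26.

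The share of LPCAT3 within its own step also lay apart between the sets. Scaling a column does not move such a share, which was chosen after its values were seen and is given without a test. LPCAT3 made up 62.9%, 57.7% and 59.5% of the summed FPKM of LPCAT1 to LPCAT4 in the INO80 siRNA columns, 93.7%, 90.3% and 92.6% in the sham water columns and 73.0%, 86.7% and 83.5% in the uninjected columns. The 3 sets did not overlap. LPCAT4, which acts on lysophosphatidylcholine and lysophosphatidylethanolamine, stood at 3.31, 8.98 and 3.11 FPKM in the INO80 siRNA columns and at 3.61, 4.63 and 6.35 FPKM in the sham water columns, which overlapped (log2 fold change -0.04, SE 0.673, adjusted p = 0.99, limma).

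**Figure D2:**
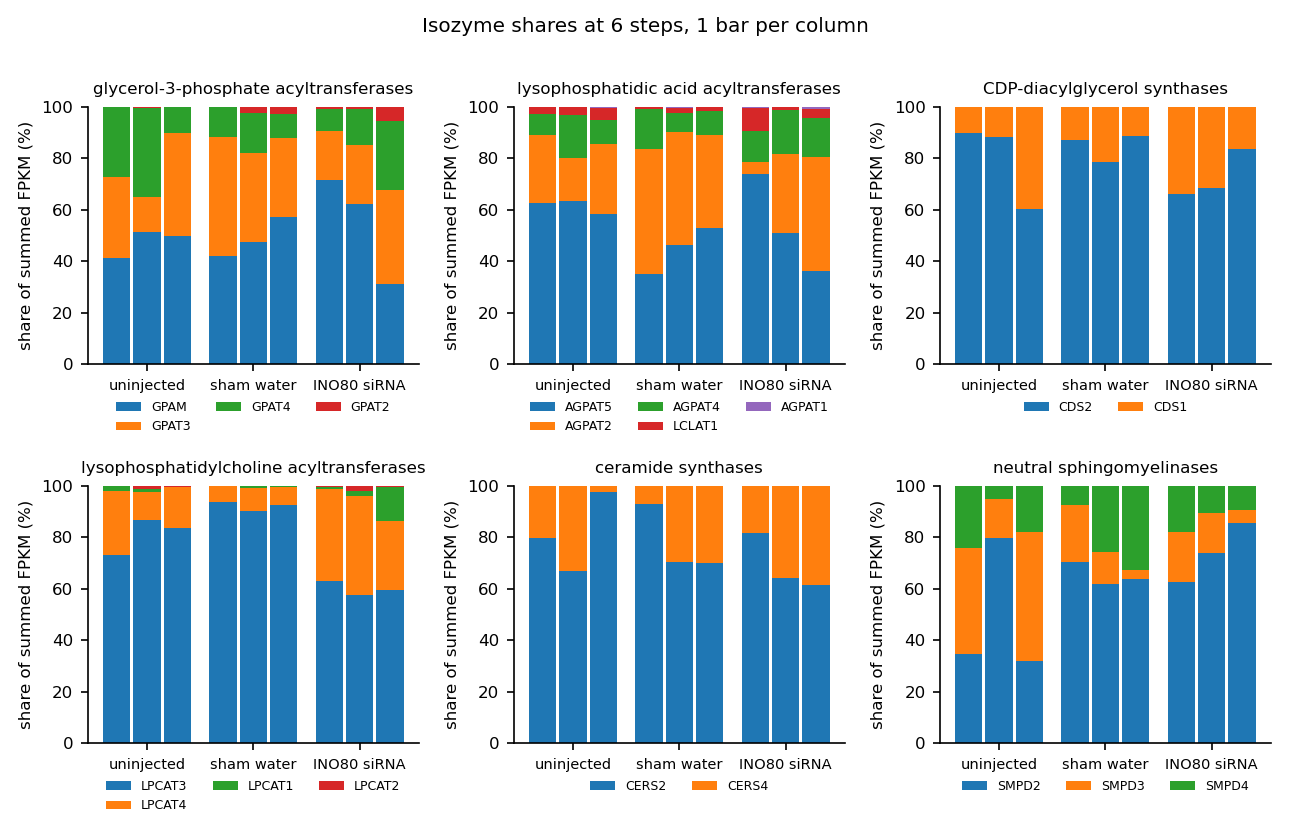
Share of summed FPKM (%) taken by each isozyme among the members at 6 steps, 1 bar per column, grouped by set. Isozymes that are no members, such as CERS5 and TAMM41, are left out. LPCAT3 takes 57.7% to 62.9% of its step in the INO80 siRNA columns and at least 73.0% in the others; at the other 5 steps the INO80 siRNA columns overlap with both other sets in the share of the leading isozyme.

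CDS2 (MSTRG.38771, chr17:15141836-15203701, plus strand) turns phosphatidic acid into CDP-diacylglycerol. It stood at 15.6, 21.9 and 10.2 FPKM in the uninjected columns, 16.8, 16.4 and 35.1 FPKM in the sham water columns and 3.75, 6.70 and 4.44 FPKM in the INO80 siRNA columns. Every INO80 siRNA column lay below the other 6, and the third sham water column was the highest. INO80 siRNA minus sham water was -1.94 (SE 0.617, unadjusted p = 0.0087, adjusted p = 0.46, limma), with a range of -2.56 to -1.48 under the alternatives.

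AGPAT2 (MSTRG.9896, chr1:313737203-313740539, minus strand), which makes phosphatidic acid and is the acyltransferase lost in a human congenital lipodystrophy, stood at 15.9, 10.6 and 15.3 FPKM in the uninjected columns, 52.7, 26.3 and 63.3 FPKM in the sham water columns and 1.28, 12.9 and 19.4 FPKM in the INO80 siRNA columns. Here the sham water columns stood above the other 6, and the INO80 siRNA columns overlapped with the uninjected ones. INO80 siRNA minus sham water was -2.40 (SE 0.821, unadjusted p = 0.0131, adjusted p = 0.46, limma), and it was -1.43 without the first INO80 siRNA column, a change of more than 1.5 times.

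GPAT3 (MSTRG.80843, chr8:144200025-144274673, minus strand), an acyltransferase of the endoplasmic reticulum, stood at 4.93, 2.07 and 8.32 FPKM in the uninjected columns, 9.89, 3.76 and 7.37 FPKM in the sham water columns and 1.06, 2.26 and 1.48 FPKM in the INO80 siRNA columns. The INO80 siRNA and sham water columns did not overlap, but the second uninjected column lay among the INO80 siRNA values. INO80 siRNA minus sham water was -1.57 (SE 0.614, unadjusted p = 0.0256, adjusted p = 0.46, limma).

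**Figure D3:**
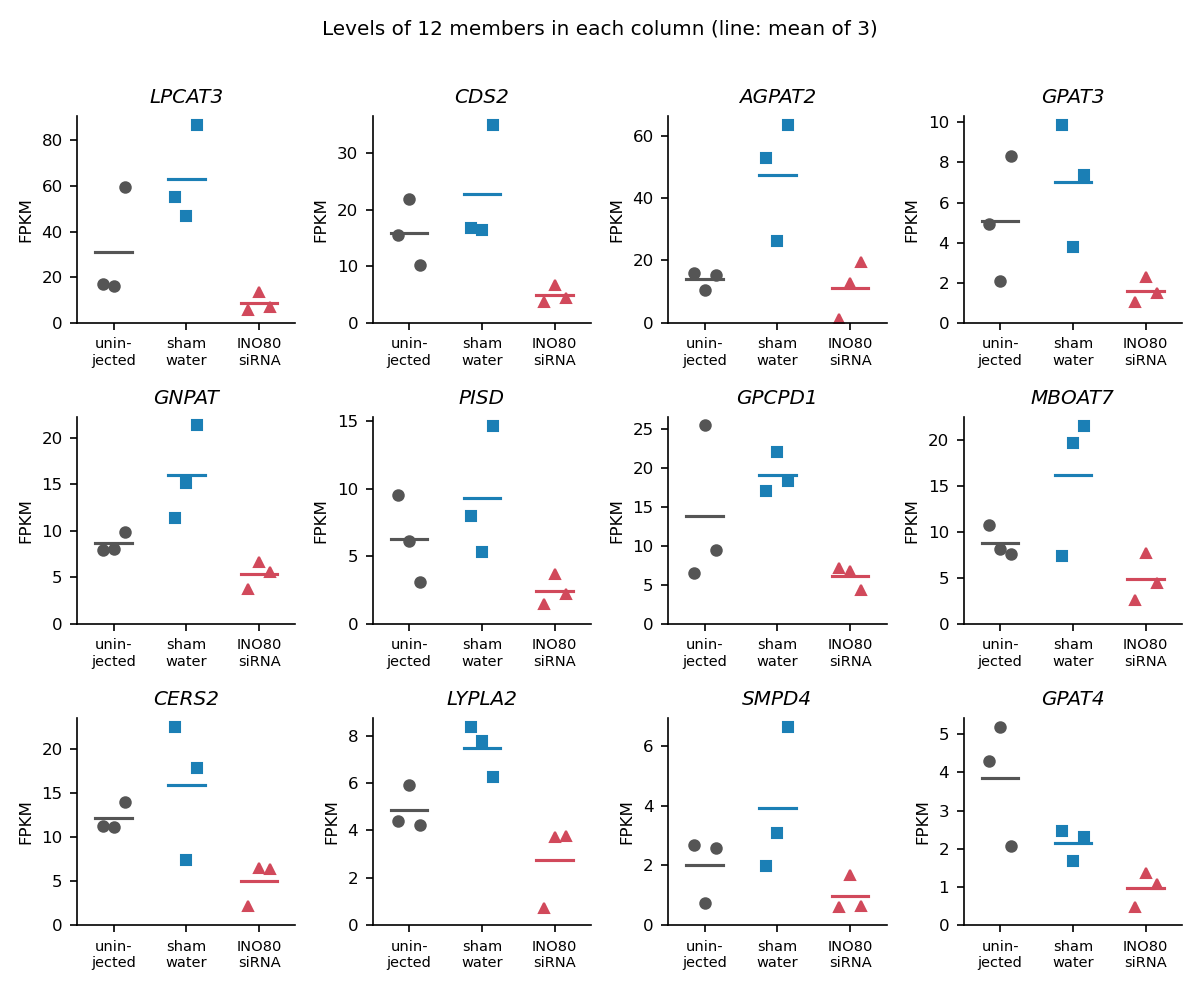
FPKM in each column of the 11 members with an unadjusted p below 0.05 in INO80 siRNA minus sham water, and of GPAT4; symbols are columns and lines the means of 3. LPCAT3 and CDS2 lie lowest in the INO80 siRNA columns, whereas AGPAT2 is set apart by high sham water columns.

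The other 7 of the 11 had log2 fold changes between -1.53 (PISD) and -1.25 (SMPD4), with unadjusted p from 0.031 to 0.048. PISD, the mitochondrial decarboxylase that makes phosphatidylethanolamine from phosphatidylserine, had means of 6.27 ± 3.23 FPKM in the uninjected columns, 9.32 ± 4.82 FPKM in the sham water columns and 2.45 ± 1.12 FPKM in the INO80 siRNA columns (SD, n = 3). CERS2 had means of 12.1 ± 1.61, 15.9 ± 7.72 and 5.03 ± 2.47 FPKM in the same order (SD, n = 3). GNPAT had means of 8.67 ± 1.09, 16 ± 5.06 and 5.36 ± 1.48 FPKM (SD, n = 3), the sham water columns highest and the INO80 siRNA columns lowest without overlap. For MBOAT7 the sets overlapped: the highest INO80 siRNA column, at 7.77 FPKM, lay above the lowest sham water column, at 7.44 FPKM.

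By role, the members above the filter had a lower mean log2 level in the INO80 siRNA columns in 10 of 10 enzymes of glycerol-3-phosphate entry and acylation, 6 of 6 of phosphatidic acid and diacylglycerol interconversion, 4 of 4 of the CDP-diacylglycerol branch, 7 of 7 phospholipases, 5 of 5 of ceramide synthesis and 4 of 4 sphingolipid hydrolases. The same held for 4 of 5 in the Kennedy pathway, 4 of 5 lysophospholipid acyltransferases, 2 of 3 in sphingosine 1-phosphate turnover and PISD. In sphingomyelin and glycosphingolipid synthesis it held for 0 of 2, with a median of 0.46. All 55 gave 50 negative values (90.9%), against 72.3% of annotated loci and 26.4% of all loci. The 5 positive values were those of UGCG, MBOAT1, SGMS2, PEMT and SGPP1. SGMS1, a second sphingomyelin synthase that is no member because its locus lacks the pathway terms, passed the filter with a value of -0.37 (adjusted p = 0.71, limma). UGCG stood at 6.18, 2.0 and 6.48 FPKM in the INO80 siRNA columns and at 2.71, 1.93 and 2.13 FPKM in the sham water columns, overlapping (log2 fold change 0.75, SE 0.607, adjusted p = 0.57, limma); under quantile normalization its value was -0.0015. SGMS2, with 2.78, 0.134 and 1.33 FPKM against 0.232, 2.05 and 0.828 FPKM, overlapped as widely. Under quantile normalization the values of MBOAT1, SGMS2 and PEMT turned negative. The glycerophospholipid term had 9 of 38 members at an unadjusted p below 0.05, all lower, and a median of -0.84. The sphingolipid term had 2 of 20, both lower, and a median of -0.52. At that mark 6.79% of annotated loci and 1.3% of all loci were lower, and the median over annotated loci was -0.34. The difference between the terms was not tested.

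**Figure D4:**
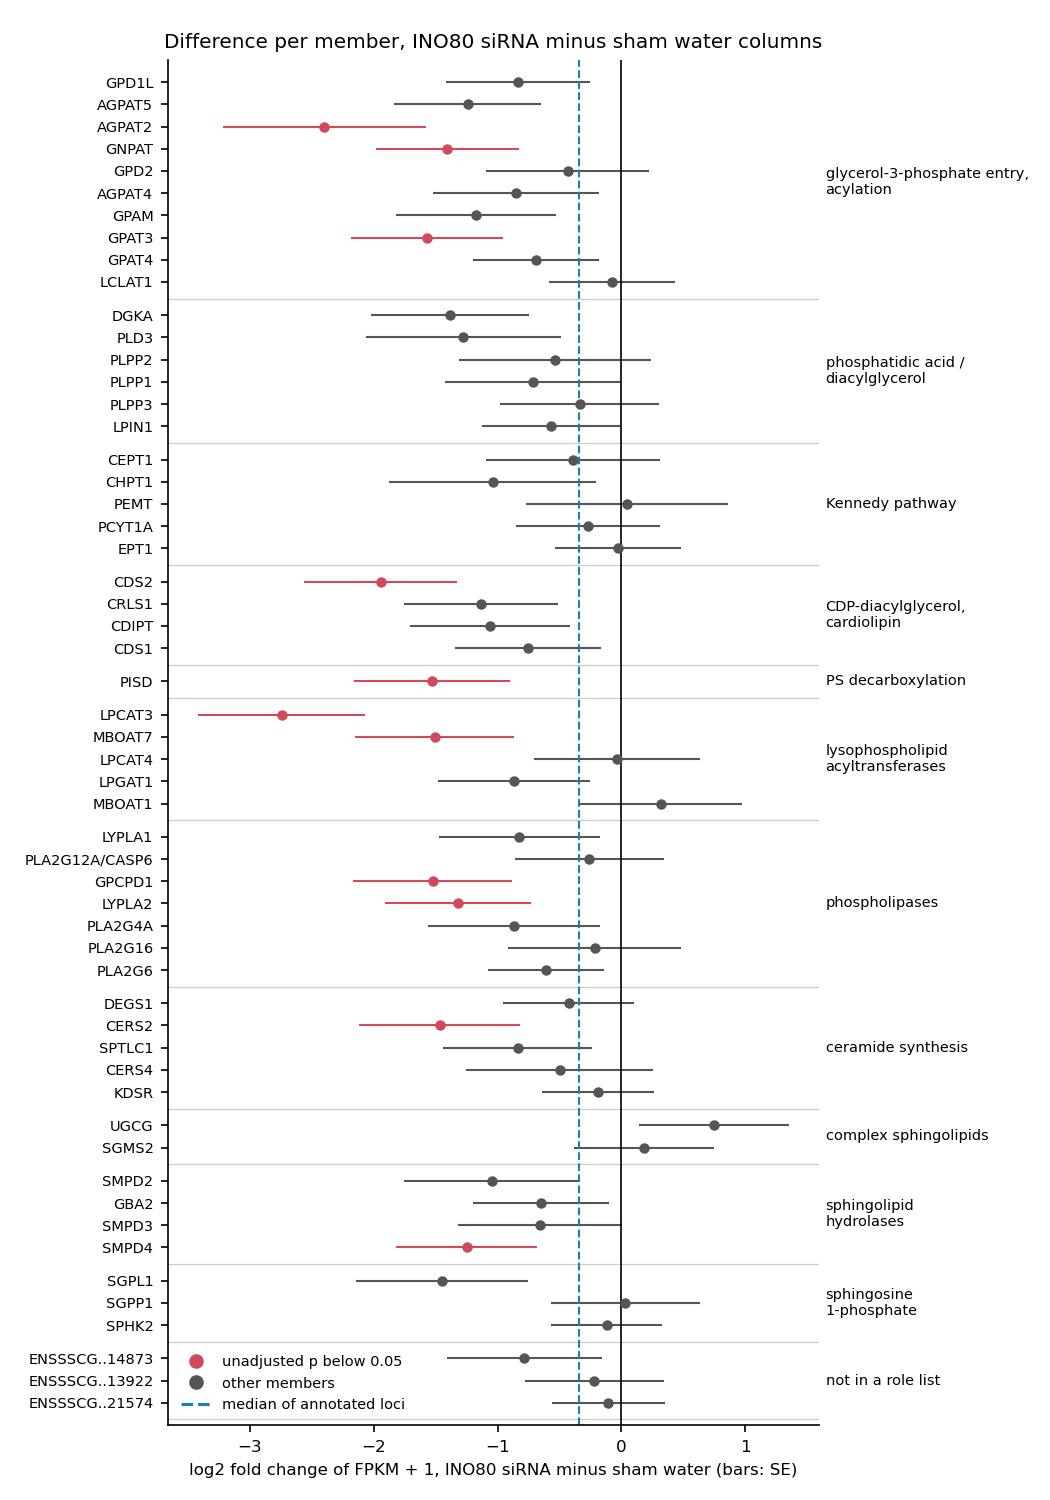
Log2 fold change of FPKM + 1, INO80 siRNA minus sham water columns, for the 55 members that passed the filter, by role; points are limma estimates, bars standard errors, and the dashed line is the median of annotated loci (-0.34). Red points have an unadjusted p below 0.05; none passed after adjustment.

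Counting members whose columns did not overlap gave a like picture. The INO80 siRNA columns lay wholly below the sham water columns in 17 of 55 members (30.9%) and wholly above in 0; of annotated loci 18.6% lay wholly below and 1.97% wholly above, and of all loci 3.68% lay wholly below and 14.3% wholly above. PLA2G6, among the 17, passed the filter only through the sham water columns, where it is highest. Over all 87 members 20 lay below and 3 above (DGKH, GPD1 and LPCAT2, each under 1 FPKM in all 9 columns), against 12.0% and 1.86% of annotated loci without a filter. The INO80 siRNA columns lay below all other 6 columns in 7 of 55 members (12.7%): CDS2, AGPAT5, LPCAT3, GNPAT, GPAT4, CERS2 and LYPLA2, in order of the gap; this held for 5.12% of annotated loci and 0.916% of all loci. AGPAT5, an acyltransferase of mitochondria, stood at 20.1, 21.3 and 15.9 FPKM in the INO80 siRNA columns and between 27.7 and 92.2 FPKM in the others. SPHK1, the inducible sphingosine kinase, was listed at 0 in the 3 INO80 siRNA columns, at 0.289, 0.378 and 0.298 FPKM in the sham water columns and at 0.713, 0 and 0.248 FPKM in the uninjected columns, levels too low for the filter.

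The comparison of the INO80 siRNA columns with the uninjected columns uses the same INO80 siRNA columns. No member passed (lowest adjusted p 0.81, limma; 0.00149% of all loci were called). At an unadjusted p below 0.05, 3 of 55 members (5.45%) were lower, GPAT4, CDS2 and LPCAT3, and 0 higher; of annotated loci 1.4% were lower and 0.376% higher, and of all loci 1.09% were lower and 4.24% higher. The count was 1 without the first uninjected column and 0 without the first INO80 siRNA column, omissions for which no share of annotated loci was taken. It was 0 with columns scaled to annotated loci, where 0.361% of annotated loci were lower. When only annotated loci were fitted it was 7, where 4.73% of annotated loci were lower. The median was -0.47 over the members that passed and -0.20 over annotated loci; without a filter it was -0.19 and -0.02.

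GPAT4 (MSTRG.38621, chr17:12137573-12157036, plus strand), the other acyltransferase of the endoplasmic reticulum, had the smallest p here. It stood at 4.31, 5.19 and 2.08 FPKM in the uninjected columns, 2.47, 1.69 and 2.31 FPKM in the sham water columns and 0.480, 1.37 and 1.09 FPKM in the INO80 siRNA columns. The INO80 siRNA columns lay below all others, while sham water and uninjected columns overlapped. INO80 siRNA minus uninjected was -1.26 (SE 0.508, unadjusted p = 0.029, adjusted p = 0.81, limma).

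CDS2 gave -1.47 (SE 0.617, unadjusted p = 0.0348) and LPCAT3 -1.53 (SE 0.677, unadjusted p = 0.0438) in the same comparison (adjusted p = 0.81 for each, limma). SMPD3, a neutral sphingomyelinase, stood at 4.59, 2.11 and 7.10 FPKM in the uninjected columns and at 0.633, 2.43 and 0.332 FPKM in the INO80 siRNA columns, an overlap by the second INO80 siRNA column (unadjusted p = 0.0551). The INO80 siRNA columns lay wholly below the uninjected columns in 13 of 55 members (23.6%), against 8.6% of annotated loci and 2.78% of all loci, and wholly above in 0, against 1.75% and 8.07%. Over all 87 members 13 (14.9%) lay below and 1 above, against 5.5% and 2.3% of annotated loci without a filter. SPHK2 and the locus of ENSSSCG00000021574, among the 13, passed the filter only through the uninjected columns, where they are highest. The 13 also include DEGS1, CERS2 and the reductase KDSR, which act in ceramide synthesis. DEGS1 stood at 53.8, 82.3 and 55.2 FPKM in the uninjected columns, 52.4, 51.2 and 42.8 FPKM in the sham water columns and 51.3, 24.1 and 37.4 FPKM in the INO80 siRNA columns, the uninjected columns above the other 6. The highest positive values, of MBOAT1 (0.63), SGMS2 (0.62), PLA2G16 (0.58) and GPD2 (0.06), had unadjusted p between 0.299 and 0.935, with overlapping columns; the value of GPD2 turned negative under quantile normalization.

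The comparison of the sham water columns with the uninjected columns asked what injection alone did, as far as the column names hold. No member passed (lowest adjusted p 0.92, limma; 0.0% of all loci were called), and at an unadjusted p below 0.05 there were 0 members in either direction, against 1.25% of annotated loci higher and 0.29% lower, and 0.554% and 3.68% of all loci. Of 55 members, 41 (74.5%) had a higher mean log2 level in the sham water columns, against 62.9% of annotated loci and 32.9% of all loci, with a median of 0.43 against 0.16. The median was 0.14 without the third sham water column, in which the 87 members summed to 1617 FPKM, the highest of the 9 columns (506 to 1308 FPKM in the others).

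The smallest p values for higher levels in limma were those of AGPAT2 (log2 fold change 1.63, SE 0.821, unadjusted p = 0.0714, adjusted p = 0.92), LPCAT3 (1.21), LPGAT1 (0.84) and GNPAT (0.78), the last at an unadjusted p of 0.201 and the same adjusted p. GNPAT stood at 11.4, 15.2 and 21.4 FPKM in the sham water columns and at 7.99, 8.07 and 9.93 FPKM in the uninjected columns. The sham water columns lay wholly above the uninjected ones in 4 members (7.27%; 8.63% of annotated loci and 2.35% of all loci), AGPAT2, GNPAT, LYPLA2 and PLA2G6, and wholly below in 4 (7.27%; 2.55% of annotated loci and 6.42% of all loci), DEGS1, EPT1, SPHK2 and the locus of ENSSSCG00000021574. The last 2 passed the filter only through the uninjected columns, and PLA2G6 only through the sham water columns, where it is highest. Over all 87 members 4 lay above and 5 below (4.6% and 5.75%), against 6.74% and 2.01% of annotated loci without a filter. EPT1, which completes phosphatidylethanolamine, stood at 1.86, 2.68 and 2.12 FPKM uninjected and at 0.369, 1.4 and 1.07 FPKM in the sham water columns. SPHK2 stood at 0.996, 1.37 and 1.39 FPKM uninjected and at 0.582, 0.543 and 0.453 FPKM in the sham water columns; these levels are near the filter. UGCG had the remaining place among the lower values (-0.72, unadjusted p = 0.256), with overlapping columns.

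**Figure D5:**
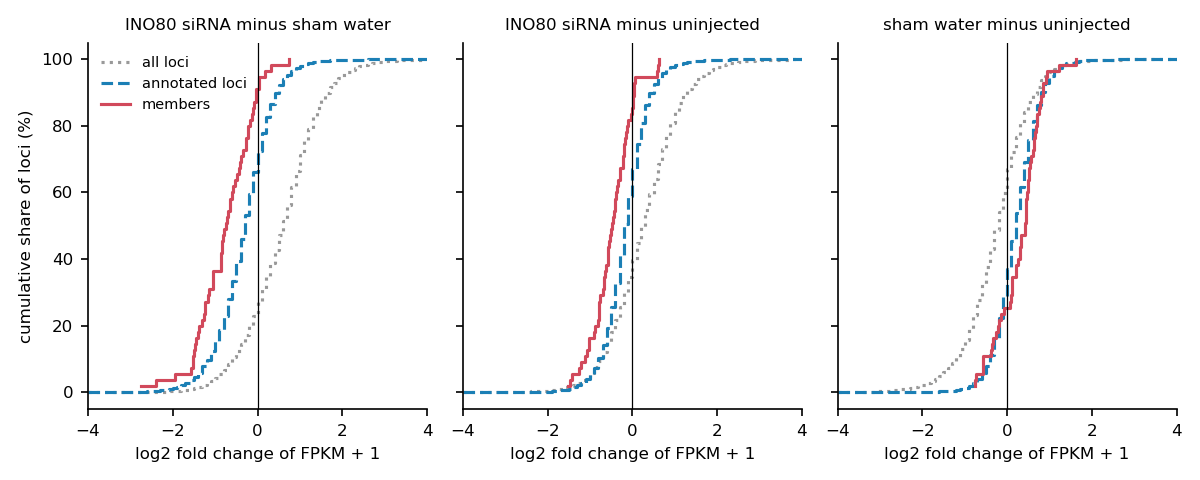
Cumulative share (%) of log2 fold changes of FPKM + 1 in the 3 comparisons, for the 55 members that passed the filter (solid), the 9311 annotated loci tested (dashed) and all 67107 loci tested (dotted). In INO80 siRNA minus sham water the medians are -0.75, -0.34 and 0.57; the 3 comparisons share columns pairwise.

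The 3 comparisons share their column sets, so they are not independent. Side by side, LPCAT3 gave -2.74 against sham water and -1.53 against uninjected, CDS2 -1.94 and -1.47, GPAT3 -1.57 and -1.12, CERS2 -1.47 and -1.22, and AGPAT2 -2.40 and -0.77. For AGPAT2, sham water minus uninjected was 1.63.

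Transcript models bear on how firmly these levels can be read. The members hold 232 transcripts in the transcript table; 38 members hold a single transcript and the most is 9. In 63 members the highest transcript is a known one and in 22 it is an assembled variant of a known gene with at least 1 shared splice junction. LPCAT3 was carried in each column almost wholly (95.4% to 100%) by such a variant of 13 exons and 2384 bases, while the known transcript of 13 exons and 3681 bases took the rest. CDS2 was measured on its known transcript of 13 exons alone. For AGPAT2, variants of 665 and 666 bases replaced each other between columns, each taking nearly all of the locus in some and 0 in others, so its transcript-level values are not reported. Of 135 member transcripts tested, 0 passed in any comparison (lowest adjusted p 0.54, limma over 111564 transcripts, of which 0.00448%, 0.00538% and 0.000896% were called in the 3 comparisons), and at an unadjusted p below 0.05 there were 9, 3 and 2 such transcripts in INO80 siRNA minus sham water, INO80 siRNA minus uninjected and sham water minus uninjected, where 8.17%, 5.43% and 3.98% of all transcripts passed that mark. The 9 were all lower; the LPCAT3 variant had the smallest p of them (log2 fold change -2.77, unadjusted p = 0.00235). In 41 members a transcript of the opposite strand lies within the gene's span, and with no stated strand setting, reads of both strands cannot be told apart there.

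Genes of the same pathways outside the 87 members were counted from lists of enzymes and of lipid carriers and related genes. The carrier list of 43 genes holds flippases, scramblases, lipid transfer proteins, sphingosine 1-phosphate receptors and transporters and serine palmitoyltransferase regulators, and also phosphoinositide enzymes (PI4KA, PIK3C2A, SACM1L) and genes of fatty acid synthesis and its control (ACACA, FASN, SCD, SREBF1, SREBF2). Of the 43, 33 matched a locus and 30 passed the filter. In INO80 siRNA minus sham water 0 of the 30 were called. At an unadjusted p below 0.05, 3 were lower (CPTP, GLTP and SPNS1) and 0 higher. Of annotated loci 6.79% were lower and 0.516% higher, and of all loci 1.3% and 9.31%. The median was -0.40, against -0.34 over annotated loci. CPTP, which carries ceramide 1-phosphate between membranes, stood at 2.51, 2.45 and 1.54 FPKM in the uninjected columns, 4.01, 6.97 and 8.93 FPKM in the sham water columns and 0.731, 0 and 0.108 FPKM in the INO80 siRNA columns. Its 3 sets did not overlap, and its log2 fold change of -2.56 had an unadjusted p of 0.00034 and an adjusted p of 0.46 (limma). GLTP, the glycolipid transfer protein, stood at 20.7, 31.1 and 26.0 FPKM in the sham water columns and at 9.60, 8.2 and 6.02 FPKM in the INO80 siRNA columns, again without overlap (log2 fold change -1.59, unadjusted p = 0.0156).

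A further 41 loci belong to the enzyme lists by symbol but lack the pathway terms or carry the lysosome term. Of these, 28 passed the filter and 0 were called. In INO80 siRNA minus sham water, 8 were lower and 0 higher at an unadjusted p below 0.05. Of annotated loci 6.79% were lower and 0.516% higher, and of all loci 1.3% and 9.31%. The median was -0.87, against -0.34 over annotated loci. ETNPPL, which breaks down phosphoethanolamine, stood at 34.9, 65.4 and 14.4 FPKM uninjected, 57.9, 78.3 and 126 FPKM in the sham water columns and 9.06, 23.1 and 7.14 FPKM in the INO80 siRNA columns, the last without overlap with the sham water columns (log2 fold change -2.75, unadjusted p = 0.00226, adjusted p = 0.46, limma). PTDSS1, which makes the phosphatidylserine that PISD decarboxylates, stood at 5.29, 5.82 and 6.58 FPKM in the sham water columns and at 0.697, 3.16 and 2.26 FPKM in the INO80 siRNA columns (log2 fold change -1.27, unadjusted p = 0.0398). Against the uninjected columns, 1 locus of each list was lower at an unadjusted p below 0.05, CPTP and PLPP5. There, 1.4% of annotated loci and 1.09% of all loci were lower. Between sham water and uninjected columns CPTP was higher (log2 fold change 1.23, unadjusted p = 0.0345, adjusted p = 0.92, limma). In that comparison 1.25% of annotated loci and 0.554% of all loci were higher.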

How the data were processed

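The tables hold FPKM per locus and per transcript, as deposited by the authors. The submitters' processing notes name the tools HISAT2, fastp, edgeR, StringTie, ChIPseeker and HOMER and the human build GRCh38.p10, with no versions; counting by strand and the annotation release are, in the sources used here, not given. Gene IDs are pig Ensembl IDs, and the pig assembly is unknown. Transcript length and exon number, other values of the transcript table, were used as deposited. The 9 coverage columns were not used. Of 17 members named by Ensembl ID, 13 matched a symbol.

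Columns were grouped by their names, because titles, siRNA characteristics and column names disagree. The test was limma 3.58.1 (R 4.3.3; two-sided, robust, with a variance trend, 9 columns in 1 fit) on log2(FPKM + 1), which understates changes of low genes, for loci whose mean reached 1 FPKM in 1 set or more, with Benjamini-Hochberg adjustment over all loci and a threshold of 0.05. Exact permutation tests served INO80. The fit was tested on simulated data. Python 3.11.15 and pandas 2.3.3 read the tables and matplotlib 3.10.9 drew the figures.

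The members, role lists and marker lists were chosen with earlier results of these data known. The rule for named genes took INO80, the 2 highest members of each role, the 4 smallest p values in each direction and comparison, and the members whose set lay apart from the other 6 columns by the widest gaps; other members named beside a count of calls were chosen after their values were seen. The alternatives comprised quantile normalization, scaling to the median column by the upper quartile of annotated loci, a pseudocount of 0.1, a minimum of 5 FPKM or none, limma without trend, annotated loci only, the replicate number as a block, the compared sets alone, and leaving out each column.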

Additional observations from a re-analysis of the deposited data

How the results depend on the processing

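Over the alternatives, 403 of 419 values kept their sign, for members named by the smallest p values in the comparison concerned. These members were picked from the same columns, so the kept signs are no independent evidence. No member was called under any alternative. Median log2 fold changes of the members that passed stayed negative in both comparisons of the INO80 siRNA columns and positive in sham water minus uninjected. For INO80 siRNA minus sham water, the median was -1.41 under quantile normalization, -0.34 with scaling to annotated loci, -0.34 without a filter (all 87 members), -1.06 at a minimum of 5 FPKM and -1.05 with a pseudocount of 0.1, and -0.83 to -0.50 when single columns were left out. For INO80 siRNA minus uninjected it was -0.072 with scaling, -0.19 without a filter and -0.58 to -0.29 without single columns. For sham water minus uninjected it was 0.74 under quantile normalization, 0.19 without a filter and 0.14 to 0.46 without single columns. The cause of these shifts was not tested.

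For INO80 siRNA minus sham water, the 1 locus called was 0 at a minimum of 5 FPKM, 0 with a pseudocount of 0.1, 0 with annotated loci only, 0 with a replicate block, 0 with the compared sets alone, and 0 to 7 when single columns were left out (7 without the first INO80 siRNA column). For INO80 siRNA minus uninjected it was 0 under the same 5 alternatives and 0 to 1 without single columns, and for sham water minus uninjected 0 to 1. Transcripts called numbered 5, 6 and 1 in the 3 comparisons, 0, 2 and 0 with a replicate block, 16 in INO80 siRNA minus uninjected with a pseudocount of 0.1, and 0 to 28, 0 to 30 and 0 to 3 without single columns. With the replicate number as a block, members lower at an unadjusted p below 0.05 numbered 6 in INO80 siRNA minus sham water and 0 in INO80 siRNA minus uninjected. Of annotated loci, 5.23% and 0.988% were lower there. The replicate numbers did not pair the columns, whose deviations from the set means correlated between -0.231 and 0.191 for the same number. Quantile normalization gave 25 such members in INO80 siRNA minus sham water, where 28.5% of annotated loci were lower, and annotated loci only gave 17, where 14.8% were lower, with the lowest adjusted p at 0.0709 (LPCAT3).

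Signs turned for small differences. INO80 gave 0.13 and 0.22 with scaling in its comparisons with sham water and uninjected columns, and ranged from -0.43 to 0.20, -0.31 to 0.32 and -0.051 to 0.36 over the 3 comparisons without single columns. Under quantile normalization, INO80 siRNA minus sham water was -0.0015 for UGCG, -0.35 for MBOAT1, -0.34 for SGMS2 and -0.69 for PEMT, and INO80 siRNA minus uninjected was -0.21 for GPD2; PEMT was -0.10 with a pseudocount of 0.1. Without single columns, INO80 siRNA minus sham water ranged from -0.36 to 0.83 for MBOAT1, -0.23 to 0.64 for SGMS2 and -0.43 to 0.94 for PEMT, and INO80 siRNA minus uninjected from -0.049 to 1.14 for MBOAT1 and -0.23 to 0.23 for GPD2. Depth is unknown, so what it limits could not be given.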
